A study of Mus musculus with 12 samples.

Results

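The cytosolic ribosomal protein genes were followed by RNA-seq in the gastrocnemius, the liver and gonadal fat, a white adipose tissue (WAT). Members were the gene symbols made of Rpl or Rps and a number, with closing letters as in Rpl10a or Rpl3l, together with Rpsa, Rplp0, Rplp1 and Rplp2. Of 22276 symbols, 83 followed this pattern, and 81 reached 1 count-per-million (CPM, a gene's estimated count relative to the library total) in at least 1 library. They were 49 genes of the large subunit and 32 of the small subunit. Rpl10l and Rpl39l, copies of Rpl10 and Rpl39, stayed below 1 CPM in all 12 libraries and were left out. Rps4l was not analysed here.

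All mice were male C57BL/6J and 8 weeks old at the start. All carried a floxed exon 3 of *Nr3c1*, which encodes the glucocorticoid receptor (GR), and GR-mKO mice also carried Cre under the skeletal actin (Acta1) promoter, which is active in muscle fibres, whereas GRfl/fl mice lacked it. For 4 weeks their drinking water held 1% ethanol alone (vehicle) or with 100 µg/mL corticosterone (CORT), which is the chief glucocorticoid of mice. Tissue, genotype and treatment gave 12 groups. Each group was 1 library made from the pooled RNA of 3 mice, so no group had a replicate, no test was run and no p-value is given. The intervals below are 95% intervals of counting error alone, and they hold neither the spread between mice nor the error of assigning reads to transcripts. In bulk tissue, fewer cells of a type and less RNA per cell cannot be told apart.

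Ribosomal proteins form, with the ribosomal RNAs, the small subunit that decodes the message and the large subunit that joins amino acids. Their genes are expressed in every cell type, and their messages begin with a pyrimidine-rich stretch, the terminal oligopyrimidine (TOP) tract, through which the mTORC1 kinase and the RNA-binding protein LARP1 control their translation and stability. Making ribosomes is among the costliest activities of a growing cell, and in muscle it accompanies growth of the fibres, while glucocorticoid excess is a known cause of muscle atrophy. The comparisons therefore asked whether CORT or the loss of the muscle receptor went with more or less ribosomal protein messenger RNA (mRNA) in each tissue.

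Promoter windows were searched for letters known from ribosomal protein promoters. RefSeq windows from 250 bases before to 50 bases after a start (build GRCm38.p6) were found for 61 of the 81 members, in 73 windows, some of which overlap. A C followed by at least 4 pyrimidines stood exactly at the annotated start in 17.8% of the member windows and in 2.51% of all 32851 windows. The letters CGGAAG, or CTTCCG for the other strand, occurred in 60.3% of the member windows and in 16.9% of all windows. CTTTCC, or GGAAAG for the other strand, occurred in 47.9% and 26.6%. These are matches of letters, and no binding was measured. The 70-base stretches below run from 50 bases before the start to 20 bases after it, 5′ to 3′ on the coding strand, with CGGAAG or CTTCCG and a pyrimidine run at the start in capitals. The first 4 belong to members that moved with the group in liver and WAT and were picked to show a pyrimidine run at the start, which most member windows lack. The last 3 are paralogs, which the results below set apart.
Rps6, chr4:86857348-86857417, minus strand: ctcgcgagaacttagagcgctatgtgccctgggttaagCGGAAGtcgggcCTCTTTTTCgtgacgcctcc
Rplp2, chr7:141447601-141447670, plus strand: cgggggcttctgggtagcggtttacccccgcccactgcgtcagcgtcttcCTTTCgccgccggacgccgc
Rpl38, chr11:114668530-114668599, plus strand: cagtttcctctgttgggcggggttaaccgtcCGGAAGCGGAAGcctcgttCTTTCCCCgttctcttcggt
Rpl28, chr7:4792915-4792984, plus strand: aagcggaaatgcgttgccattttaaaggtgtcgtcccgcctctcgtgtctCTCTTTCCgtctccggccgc
Rps27l, chr9:66946036-66946105, plus strand: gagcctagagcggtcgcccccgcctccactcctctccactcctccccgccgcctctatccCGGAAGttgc
Rpl7l1, chr17:46782637-46782706, minus strand: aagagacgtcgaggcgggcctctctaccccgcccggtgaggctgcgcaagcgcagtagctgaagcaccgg
Rpl3l, chr17:24727776-24727845, plus strand: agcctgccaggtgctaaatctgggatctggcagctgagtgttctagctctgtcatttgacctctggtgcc
The starts of Rps6, Rplp2, Rpl38 and Rpl28 open with 9, 5, 8 and 8 pyrimidines. Like most member windows, those of Rps27l, Rpl7l1 and Rpl3l hold no such run at the first annotated start.

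The libraries held 19394572 to 20940660 expected counts, and 3 counts, the floor, were 0.143 to 0.155 CPM. The targeted gene, *Nr3c1*, was at 113 and 90.4 CPM in the GRfl/fl gastrocnemius under vehicle and CORT and at 46.4 and 35.5 CPM in the GR-mKO gastrocnemius. In liver it was at 58.0, 45.2, 60.8 and 49.6 CPM, and in WAT at 155, 136, 158 and 111 CPM, in the order GRfl/fl vehicle, GRfl/fl CORT, GR-mKO vehicle and GR-mKO CORT. This order of the 4 groups is used for every series of 4 values below. Defining markers fitted each labelled tissue, with the 7 myofibre markers summing to 87953 to 119944 CPM in gastrocnemius, the 7 hepatocyte markers to 82879 to 156553 CPM in liver and the 7 adipocyte markers to 23439 to 30889 CPM in WAT.

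Ribosomal protein mRNA was a larger part of the gastrocnemius transcriptome in GR-mKO mice, and a smaller part of the liver and WAT transcriptomes under CORT than under vehicle. In gastrocnemius the members together took 1.26%, 1.24%, 1.95% and 1.87% of the library. In liver they took 1.03%, 0.863%, 1.22% and 1.06%, and in WAT 2.08%, 1.58%, 2.20% and 1.89%. Counting intervals of these shares (95%, Wilson) were narrow, such as 1.94% to 1.96% for the GR-mKO vehicle gastrocnemius. The GR-mKO to GRfl/fl ratio of the shares in gastrocnemius was 1.54 under vehicle and 1.51 under CORT. The CORT to vehicle ratio was 0.841 and 0.873 in liver and 0.761 and 0.858 in WAT, in GRfl/fl and GR-mKO. In gastrocnemius it was 0.979 and 0.960. Large-subunit members took 1.51 to 1.64 times the share of small-subunit members in every library.

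**Figure D1:**
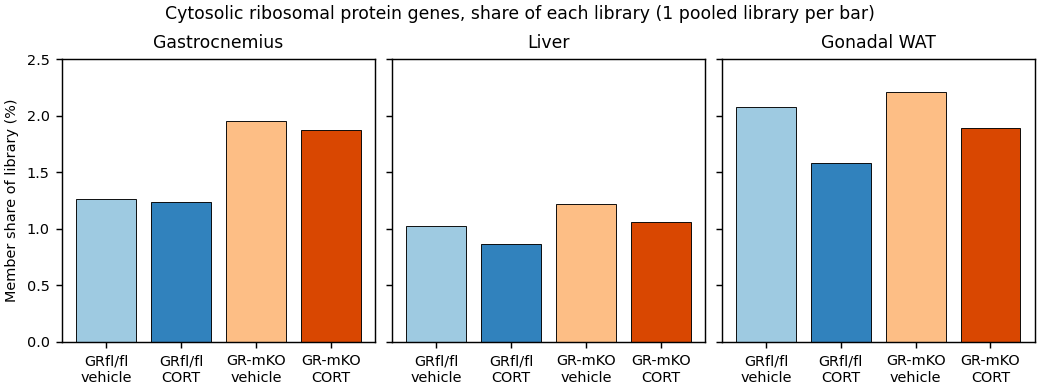
Share of each library, in percent of its expected counts, taken by the ribosomal protein genes; each bar is 1 library from pooled RNA, and there are no error bars because no group had a replicate. Both GR-mKO bars stand above both GRfl/fl bars in gastrocnemius, at 1.95% and 1.87% against 1.26% and 1.24%, and within each genotype the CORT bar is below the vehicle bar in liver and WAT.

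The median member stood at 137, 136, 224 and 213 CPM in gastrocnemius, at 120, 98.6, 141 and 127 CPM in liver and at 236, 172, 244 and 218 CPM in WAT. The order of the members by level was much the same in all tissues, with Spearman's rho of 0.89 between gastrocnemius and liver, 0.90 between gastrocnemius and WAT and 0.96 between liver and WAT over the 73 members with the same deposited transcript in all 3, which share transcript length and quantification. Per kilobase of the deposited transcript, Rplp1, a protein of the acidic stalk that recruits elongation factors, had the highest level in each tissue, at 932, 595 and 1228 CPM per kilobase in gastrocnemius, liver and WAT. It was followed by Rps24 (667) and Rps2 (653) in gastrocnemius, by Rps2 (535) and Rps15 (353) in liver and by Rpl23a (797) and Rps15 (758) in WAT, all small-subunit proteins except Rpl23a.

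Among members with a mean of at least 1 CPM in the tissue, which leaves Rpl3l out in liver and WAT, the low end per kilobase was held by Rps27, Rps12, Rpl7l1 and, in liver, Rpl22l1. Rps27 was at 9.51, 6.18 and 4.36 CPM per kilobase in the 3 tissues and Rps12 at 14.3, 5.51 and 13.9. Both have a near-identical entry in the files that took most of the counts. Rps27rt was at 169, 168, 300 and 287 CPM in gastrocnemius, where Rps27 was at 13.1 CPM in GR-mKO vehicle and at 0 in the other 3 libraries. Rps12-ps3 and Rpl10-ps3 held the counts of Rps12 and Rpl10 in the same way, so that Rpl10 kept 3.51% to 6.58% of the 2 entries' sum in gastrocnemius. The values of Rps27, Rps12 and Rpl10 are therefore uncertain. Adding near-identical entries to their members moved none of the 12 medians by more than the counting interval of a median member.

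In gastrocnemius the members were higher in GR-mKO mice under both treatments. Their median log2 change was 0.65 under vehicle and 0.61 under CORT, against 0.08 and 0.04 over all 12190 genes tested, those with a mean of at least 1 CPM in the tissue. Of 81 members, 75 were higher and 6 lower in GR-mKO under vehicle, and 78 were higher and 2, Rpl10 and Rps12, lower under CORT. A change of at least 1.5-fold upward was seen in 48 members (59.3%) under vehicle, when 15.8% of all genes tested were that much higher, and in 42 (51.9%) under CORT, when 15.4% were. No member was 1.5-fold lower in either, against 9.76% and 13.8% of all genes. Both GR-mKO libraries lay above both GRfl/fl libraries for 72 of the 81 members and for 27.1% of all genes tested. The genotype comparisons share no library with each other, but each shares its libraries with the CORT comparisons below.

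Each subunit contributed. The large-subunit median was 0.59 under vehicle and 0.58 under CORT, and the small-subunit median 0.69 and 0.64. Rps6, the small-subunit protein that the S6 kinases phosphorylate, was at 268, 260, 405 and 373 CPM, with GR-mKO changes of 0.59 (interval 0.54 to 0.64) and 0.52 (0.47 to 0.57). Both GR-mKO values were above both GRfl/fl values. Rpl5 and Rpl11, which bind the 5S ribosomal RNA and can restrain MDM2 outside the ribosome, were at 157, 163, 236 and 216 CPM and at 98.3, 95.9, 151 and 131 CPM. Their changes were 0.59 and 0.61 under vehicle and 0.41 and 0.45 under CORT, and neither gene's genotypes overlapped.

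The stalk proteins differed in size of change. Rplp1 was at 300, 344, 617 and 599 CPM and Rplp2 at 46.8, 66.6, 112 and 110 CPM. Their GR-mKO changes were 1.04 and 1.26 under vehicle and 0.80 and 0.72 under CORT. Rplp0, which anchors these stalk proteins to the large subunit and was the reference gene of the study's PCR assays, was at 670, 611, 737 and 787 CPM. Its GR-mKO change was 0.14 (0.10 to 0.17) under vehicle and 0.36 (0.33 to 0.40) under CORT, in both cases below the member median. Rpsa, a small-subunit protein that also acts as a laminin receptor, likewise differed little, at 307, 231, 338 and 291 CPM, with changes of 0.14 and 0.34 and with its GRfl/fl vehicle value above its GR-mKO CORT value.

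Rpl13a, which is also known for silencing translation of inflammatory messages, was at 90.0, 80.3, 158 and 134 CPM, with changes of 0.81 and 0.73. Among members with a mean of at least 10 CPM, the largest changes under CORT were those of Rps27l at 1.56, Rps19, a small-subunit protein mutated in Diamond-Blackfan anaemia, at 1.28, and Rpl39, at the peptide exit tunnel, just below Rps19. Rps19 stood at 15.5, 24.1, 66.8 and 59.2 CPM and Rpl39 at 36.7, 35.0, 78.0 and 84.1 CPM, without overlap between genotypes. The lowest under CORT were Rpl10 at -0.20, Rpl4 at 0.10 and Rpl7l1 at 0.18, and Rpl10 is 1 of the uncertain entries above.

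**Figure D2:**
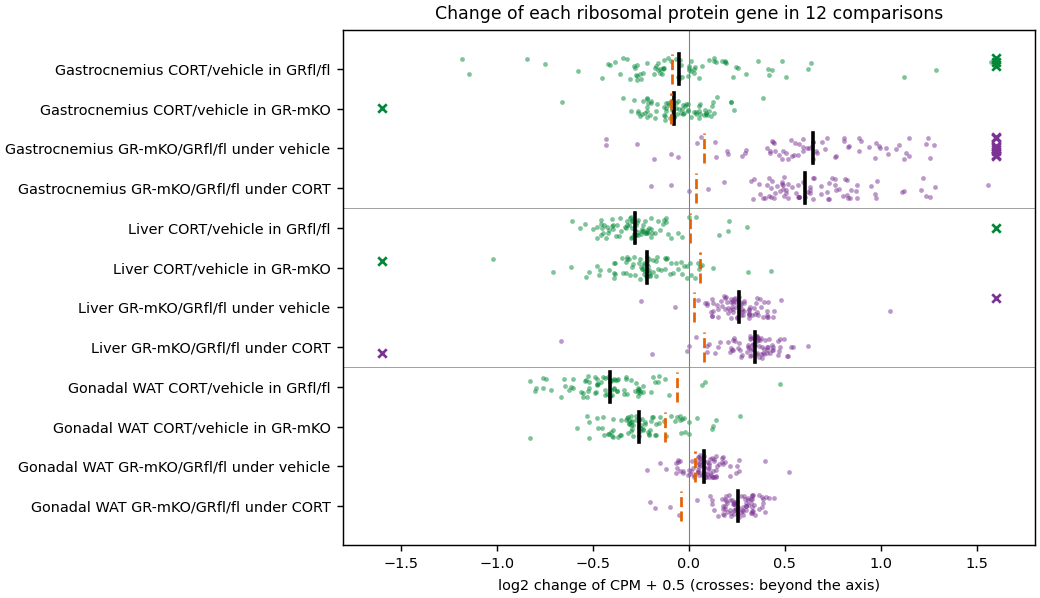
Log2 change (CPM with 0.5 added) of each ribosomal protein gene in the 12 comparisons, 1 point per gene, with crosses for genes beyond the axis; the black bar is the members' median and the dashed orange bar the median of all genes tested in that tissue. The points of both gastrocnemius genotype comparisons lie mostly to the right, with medians of 0.65 and 0.61, and those of the liver and WAT CORT comparisons mostly to the left, with medians from -0.22 to -0.41.

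The gastrocnemius library of GRfl/fl mice under vehicle stood apart for single members. Rps27a, which is made as a fusion with ubiquitin, was at 2.64 CPM there and at 53.9, 99.6 and 83.6 CPM in the other 3 libraries. Rpl38, a large-subunit protein, was at 10.2 CPM there against 51.3, 99.7 and 94.6, and Rpl30, of the same subunit, at 15.4 against 70.7, 109 and 111. Rpl41, Rps14 and Rps28 were also below 50% of each other library. In all, 6 of 81 members were this low in that library, and in none of the other libraries was a member below 50% of each other library of its tissue. How many of all genes were this low there was not counted. At the other end were Rpl28 (192, 86.5, 142 and 117 CPM), Rps7 (203, 89.3, 179 and 175 CPM) and Rpl10a (140, 77.8, 116 and 110 CPM), whose highest values were in that same library.

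These single genes produce the extremes of the 2 comparisons that use the library. Among members with a mean of at least 10 CPM, which leaves out Rps27 and Rps12, the 3 largest GR-mKO changes under vehicle were those of Rps27a, with an interval of 4.85 to 5.67, Rpl38 at 3.23 and Rpl30 at 2.78, and the lowest were those of Rpl10 and Rpl28, both -0.43, and Rpl10a at -0.27. All 6 low genes have several protein-coding transcripts in the annotation, as do 54 of the 81 members. Each symbol has 1 entry in the deposited data, and the part of transcript choice in the values of these 6 was not tested. The 26 members with a single protein-coding transcript and no near-identical entry had medians of 0.64 under vehicle and 0.63 under CORT, and all 26 were higher in GR-mKO in both. The genotype comparison under CORT does not use the library that stood apart.

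**Figure D3:**
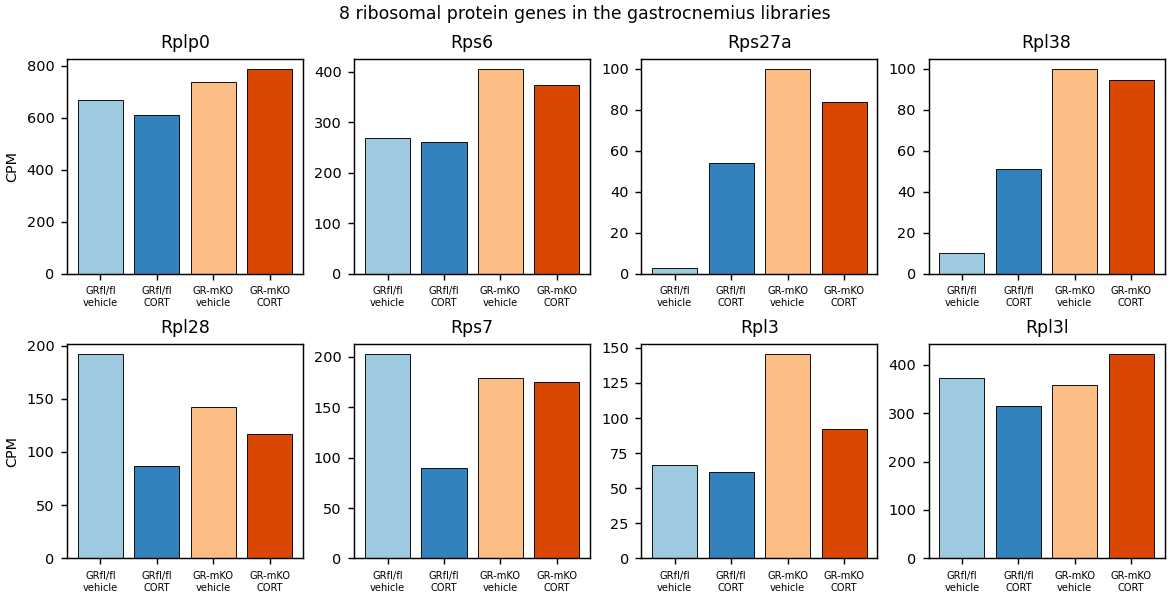
CPM of 8 ribosomal protein genes in the 4 gastrocnemius libraries, each bar 1 library without a replicate, with a separate linear axis from 0 for each gene. Rps6 is higher in both GR-mKO libraries, Rps27a and Rpl38 are lowest in GRfl/fl vehicle at 2.64 and 10.2 CPM, Rpl28 and Rps7 are highest there, and Rpl3l differs little between genotypes.

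Short transcripts in general were higher in the GR-mKO gastrocnemius, and most members have short transcripts. Among other genes with a mean of at least 50 CPM, the median change of those with transcripts of at most 600 bases was 0.51 under vehicle and 0.69 under CORT, against 0.86 and 0.77 for the 30 members of that length. Between 600 and 1000 bases the other genes were at 0.32 and 0.54 and the 35 members at 0.57 and 0.52. Between 1000 and 1500 bases they were at 0.21 and 0.31 and the 10 members at 0.61 and 0.52. Of the 179 abundant other genes of at most 1000 bases, 30.7% were at least 1.5-fold higher under vehicle and 45.8% under CORT. With the median change of the other genes nearest in transcript length subtracted from each member, the members' medians were 0.26 under vehicle, with 62 of 81 above 0, and 0.10 under CORT, with 52 above 0. The 16 members longer than 1000 bases had a median of 0.42 under CORT.

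**Figure D4:**
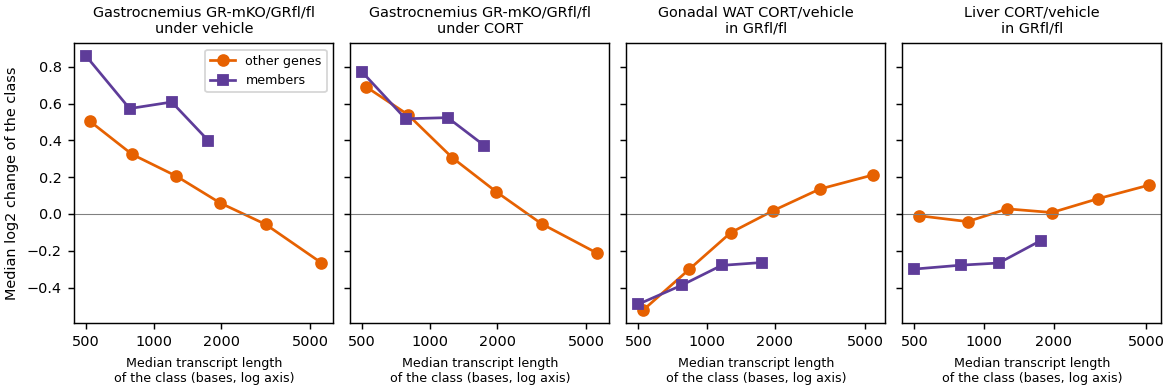
Median log2 change by class of transcript length for ribosomal protein genes (squares, classes with at least 4 members) and other genes with a mean of at least 50 CPM (circles), in 4 comparisons, on a log axis of length. In the GR-mKO gastrocnemius and in WAT under CORT the other genes slope with length, from 0.51, 0.69 and -0.52 at the shortest class, whereas in liver they lie near 0 at all lengths below 2500 bases and the members lie below them.

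Markers of some other cells moved with genotype in gastrocnemius too. The 7 macrophage markers summed to 150, 149, 501 and 193 CPM, all 7 above the floor in each library. The 9 B and T cell markers summed to 62.6, 13.2, 142 and 60.0 CPM. Only 2, 4, 5 and 3 of these 9 were at or above the floor, so their sums rest on few genes. The 7 hepatocyte markers summed to 6.27, 9.76, 83.4 and 310 CPM. The 3 erythroid markers summed to 494, 486, 865 and 1588 CPM, and the 7 myofibre markers to 119944, 107845, 87953 and 110297 CPM. The 4 fibroblast markers summed to 1415, 474, 2093 and 681 CPM and the 5 proliferation markers to 20.5, 23.2, 33.7 and 26.4 CPM, both higher in GR-mKO under each treatment. The 3 endothelial markers summed to 242, 221, 267 and 181 CPM and the 7 adipocyte markers to 377, 922, 420 and 619 CPM. Both of these lists were higher in GR-mKO under vehicle and lower under CORT. The part of these shifts in the members' difference was not tested.

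Under CORT the gastrocnemius members had medians near 0, and their direction depended on the processing. The median log2 change was -0.05 for GRfl/fl and -0.08 for GR-mKO mice, beside -0.09 over all genes in each, and both medians became positive, 0.034 and 0.074, when libraries were scaled by TMM, a trimmed mean of ratios. With the length trend removed they were 0.16, with 57 of 81 members above 0, and -0.023, with 32 above 0. By library totals in GRfl/fl 34 members were higher and 46 lower, and with TMM 43 were higher and 37 lower. In GR-mKO 24 were higher and 57 lower, and with TMM 58 were higher and 23 lower. Relative to the median of all genes, which the scalings moved by up to 0.10 in GRfl/fl and 0.14 in GR-mKO, the member medians were 0.039 and 0.013.

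Past 1.5-fold in GRfl/fl under CORT were 8 members upward and 4 downward, against 8.93% and 15.3% of all genes. The highest were Rps27a at 4.12, Rpl38 at 2.28 and Rpl30 at 2.16 and the lowest Rps7 at -1.18, Rpl28 at -1.15 and Rpl10a at -0.84. All 6 had their lowest or highest gastrocnemius value in the vehicle library that stood apart. The remaining downward gene was Rpl31 at -0.75, named here after its value was seen. In GR-mKO no member was 1.5-fold higher and 2 were lower, Rps27, already named as uncertain, and Rpl3, against 4.87% and 15% of all genes. Among members with a mean of at least 10 CPM, Rps27l (0.38), Rpl3l (0.23) and Rps14 (0.22) were highest and Rpl3 (-0.66), Rps9 (-0.30) and Rpl28 (-0.28) lowest. Both CORT libraries lay below both vehicle libraries for 5 of 81 members (Rpl10a, Rpl28, Rpl31, Rps7 and Rpsa) and for 23.5% of all genes. By sign, 31 members were lower under CORT in both genotypes, 9 were higher in both and 40 went opposite ways.

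In liver nearly every member was lower under CORT. The median log2 change was -0.28 for GRfl/fl and -0.22 for GR-mKO mice, against 0.01 and 0.06 over all 10943 genes tested. Of the 80 members tested, 73 and 70 were lower, and 66 were lower in both genotypes. Few members passed 1.5-fold. Downward these were Rpl22l1 in GRfl/fl and Rpl22l1, Rpl12, Rps12 and Rps27 in GR-mKO, against 13.9% and 8.94% of all genes. Upward it was Rps27 in GRfl/fl and none in GR-mKO, against 14.8% and 10.6%. Rpl22l1, Rps12 and Rps27 have few counts in liver and were named here after their values were seen. Both CORT libraries were below both vehicle libraries for 23 of 80 members and for 21.6% of all genes.

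Rps6 was at 278, 240, 364 and 334 CPM in liver, with CORT changes of -0.21 (-0.27 to -0.16) and -0.12 (-0.17 to -0.08). It was lower under CORT within each genotype, while its GR-mKO CORT value was above its GRfl/fl vehicle value. Rps4x, the X-linked member of the small subunit, was at 170, 120, 216 and 149 CPM, with changes of -0.50 and -0.54 and both CORT values below both vehicle values. Rankings in liver leave out Rpl22l1, Rps12 and Rps27, whose means were below 10 CPM. In GRfl/fl the lowest changes were those of Rpl36a at -0.57, Rplp2 at -0.54 and Rps4x, and the highest those of Rps19 and Rpl10, both 0.21, and Rpl7l1 at 0.16. In GR-mKO the lowest were Rpl12, a stalk-base protein, at -0.61, then Rps4x, and Rpl27a at -0.52, and the highest Rpl13a at 0.43, Rps19 at 0.31 and Rpl35 at 0.12.

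Other short transcripts in liver did not go with the members. Abundant other genes of at most 600 bases had median changes of -0.01 in GRfl/fl and 0.07 in GR-mKO, when members of that length were at -0.30 and -0.23. With the length trend removed the member medians were -0.19 and -0.28. All 26 single-transcript members were lower in GRfl/fl and 25 of them in GR-mKO. The 7 hepatocyte markers summed to 82879, 122687, 106793 and 156553 CPM and so took a larger part of the library under CORT, while the 7 macrophage markers summed to 201, 67.7, 162 and 105 CPM and the 3 endothelial markers to 54.7, 33.9, 55.2 and 47.6 CPM. The part of these shifts in the members' lower share was not tested.

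In liver, where *Nr3c1* was at like levels in the genotypes, the members were also higher in the GR-mKO mice. Both GRfl/fl liver libraries are numbered apart from all others of the series. Whether they were also processed apart is not stated, and in liver this could not be told apart from genotype. The median was 0.26 under vehicle and 0.35 under CORT, against 0.03 and 0.08 over all genes, with 78 and 75 of 80 members higher. Past 1.5-fold were 2 members upward under vehicle (Rps27 and Rps12), and under CORT 1 upward (Rps27l) and 2 downward (Rps27 and Rpl22l1). Among all genes 6.31% were 1.5-fold higher and 4.91% lower under vehicle, and 10% and 7.69% under CORT. Both GR-mKO libraries were above both GRfl/fl libraries for 53 of 80 members and for 16.7% of all genes. The length-trend-removed medians were 0.19 and 0.14.

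The largest of these liver changes among members with at least 10 CPM were those of Rps28 (0.48), Rps3a1 (0.44) and Rps7 (0.44) under vehicle and of Rps27l (0.62), Rpl35 (0.54) and Rps14 (0.53) under CORT. The lowest were those of Rpl13a (-0.07), Rpsa (0.05) and Rpl35 (0.08) under vehicle and of Rps2 (-0.19), Rpl7l1 (-0.01) and Rplp1, at 275 CPM in both CORT libraries, under CORT. Rpl35 thus stood near the bottom under vehicle and near the top under CORT, at 129, 103, 137 and 149 CPM. Its near-identical entry Gm2000 was at 16.6, 17.8, 26.0 and 14.2 CPM, lowest in the library where Rpl35 was highest. The part of read assignment in this position of Rpl35 was not tested. Rpsa was nearly level across the liver libraries at 202, 194, 209 and 207 CPM. Rplp0 was at 314, 266, 342 and 333 CPM, and its lowest value was in GRfl/fl CORT, as it was for 70 of the 80 members, while 68 had their highest value in GR-mKO vehicle. These orders were not counted over all genes.

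In WAT the members were lower under CORT in both genotypes and by more in GRfl/fl mice. The median was -0.41 for GRfl/fl and -0.26 for GR-mKO mice, against -0.06 and -0.13 over all 12817 genes tested. In GRfl/fl 77 of 80 members were lower, and in GR-mKO 73 were, or 63 when libraries were scaled by TMM. TMM moved the median of all genes by 0.12 in the GR-mKO comparison, and relative to the median of all genes the member medians were -0.35 and -0.13. Past 1.5-fold were 14 members downward in GRfl/fl, or 8 with TMM, and Rps12 alone in GR-mKO, against 19.5% and 17.2% of all genes by library totals. No member was 1.5-fold higher, against 14.4% and 8.97%. Both CORT libraries lay below both vehicle libraries for 68 of 80 members and for 40.3% of all genes.

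Rplp2 had the largest difference in GRfl/fl WAT, at 174, 98.2, 186 and 133 CPM, with changes of -0.83 (-0.91 to -0.75) and -0.48 (-0.55 to -0.41). Rps19 was at 132, 75.3, 131 and 98.1 CPM, with a GRfl/fl change of -0.80. Rplp2 and Rps19 each had both CORT values below both vehicle values. Among members with a mean of at least 10 CPM, which leaves out Rps12 and Rps27, the lowest in GR-mKO were Rps24 (-0.53), Rps7 (-0.52) and Rpl13a (-0.52). Rplp1 was at 672, 479, 698 and 603 CPM and Rps6 at 471, 376, 531 and 443 CPM, again without overlap between treatments. Rplp0 was at 660, 559, 681 and 660 CPM, so its CORT change was -0.24 (-0.28 to -0.20) for GRfl/fl and -0.04 (-0.08 to -0.01) for GR-mKO mice.

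In WAT, short transcripts in general were lower under CORT in GRfl/fl but much less so in GR-mKO mice. Abundant other genes of at most 600 bases had a median of -0.52 in GRfl/fl, close to the -0.49 of the 31 members of that length, and of -0.06 in GR-mKO, when those members were at -0.31. Between 1000 and 1500 bases the other genes were at -0.10 and 0.03 and the 9 members at -0.28 and -0.21. With the trend removed the member median was -0.063 in GRfl/fl, with 57 of 80 members below 0, and -0.19 in GR-mKO, with 67 below 0. In that form the GRfl/fl median was the one nearer to 0.

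Markers of other cells moved with CORT in WAT, not all in the same direction. The 7 macrophage markers summed to 1000, 2290, 1233 and 2252 CPM, with all 7 at or above the floor in every library. The 9 B and T cell markers summed to 343, 877, 452 and 678 CPM, with 9, 4, 9 and 9 of them at or above the floor. In GRfl/fl CORT, where that sum was highest, it thus rested on 4 genes. The 3 endothelial markers summed to 514, 199, 482 and 270 CPM, and the 7 adipocyte markers to 28473, 24203, 30889 and 23439 CPM. The 3 erythroid markers, at 2787, 1369, 2883 and 3573 CPM, were lower under CORT in GRfl/fl and higher in GR-mKO mice. The part of such shifts in the members' lower share was not tested.

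Genotype made little difference to the WAT members under vehicle and a small one under CORT. The medians were 0.08 and 0.26, against 0.03 and -0.04 over all genes, with 66 and 76 of 80 members higher in GR-mKO. No member passed 1.5-fold in either direction in either comparison. Among all genes 5.11% were 1.5-fold higher and 5.05% lower under vehicle, and 5.26% and 6.13% under CORT. Both GR-mKO libraries were above both GRfl/fl libraries for 7 of 80 members and for 6.96% of all genes. In GRfl/fl CORT 76 of the 80 members had their lowest WAT value, an order that was not counted over all genes. With the length trend removed the medians were 0.12 and 0.077.

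At the ends of these WAT comparisons, again among members with at least 10 CPM, Rpl7a (0.40), Rps3a1 (0.26) and Rps27a (0.26) were highest in GR-mKO under vehicle and Rplp2 (0.44), Rpl35a (0.42) and Rpl30 (0.40) under CORT. The lowest were Rpl22l1 (-0.22), Rpsa (-0.15) and Rps14 (-0.12) under vehicle and Rpl22l1 (-0.18), Rpl7l1 (-0.10) and Rpl10 (-0.05) under CORT. Rps27a, so low in 1 gastrocnemius library, was at 113, 94.3, 135 and 110 CPM in WAT and at 58.8, 47.0, 78.5 and 59.9 CPM in liver, where it moved with the other members.

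**Figure D5:**
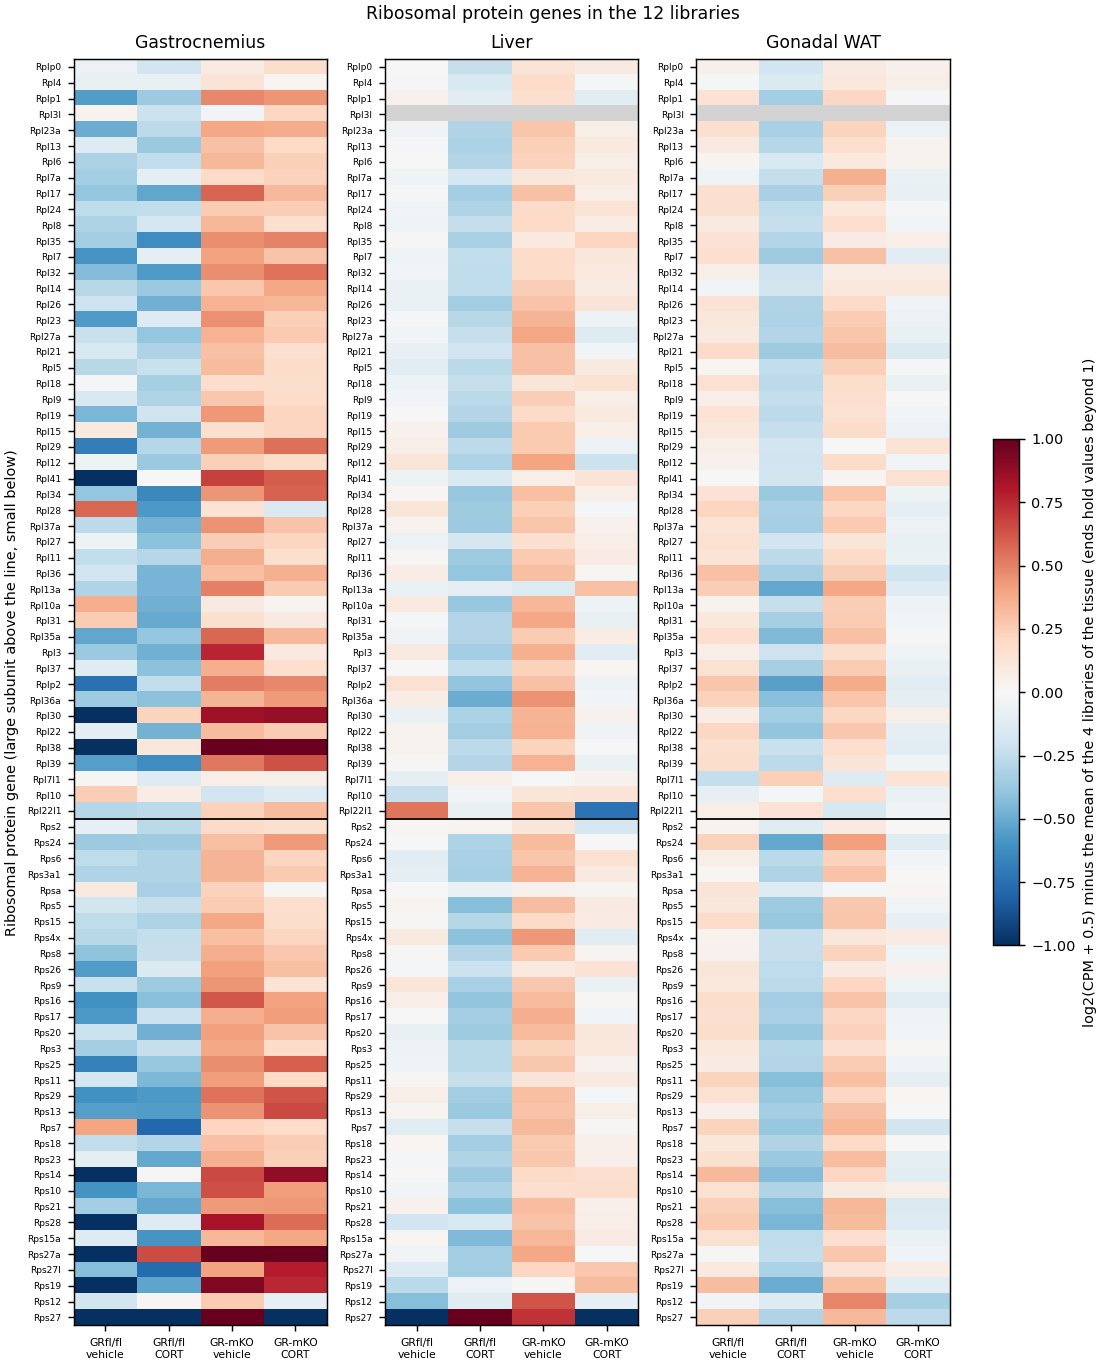
Log2 level (CPM with 0.5 added) of 80 of the 81 ribosomal protein genes in each library minus the mean of the 4 libraries of that tissue, large subunit above the line and small below; grey marks Rpl3l, below 1 CPM in liver and WAT, and colours stop at 1 to either side. The GRfl/fl CORT column is mostly the lowest in liver and WAT, and in gastrocnemius both GR-mKO columns are mostly above both GRfl/fl columns.

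The CORT change of the members was compared between genotypes, a difference that 4 libraries without replicates cannot test. The GR-mKO change minus the GRfl/fl change had a median of -0.01 in gastrocnemius, 0.09 in liver and 0.17 in WAT, against -0.04, 0.05 and -0.07 over all genes. It was above 0 for 39 of 81, 54 of 80 and 73 of 80 members, counts that were not made over all genes. With the length trend removed, the CORT medians of GRfl/fl and GR-mKO mice were -0.19 and -0.28 in liver. In WAT they were -0.063 and -0.19. In both tissues the members were then lower by more in GR-mKO, so the order of the genotypes depended on the processing. In WAT 72 members were lower under CORT in both genotypes, 2 (Rpl7l1 and Rpl22l1) were higher in both and 6 had opposite signs.

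The paralogs were compared with their partners. Rpl3l, the striated muscle form of Rpl3, was at 374, 314, 359 and 423 CPM in gastrocnemius and at no more than 0.10 CPM, below the floor, in any liver or WAT library, although its deposited transcript was not the same in all 3 tissues. Its partner Rpl3, which helps to form the peptidyl transferase centre, was at 66.3, 61.5, 146 and 91.9 CPM in gastrocnemius, at 169, 126, 203 and 147 CPM in liver and at 372, 306, 400 and 346 CPM in WAT. The GR-mKO change of Rpl3 in gastrocnemius was 1.13 (1.04 to 1.23) under vehicle and 0.58 (0.47 to 0.69) under CORT, and that of Rpl3l was -0.06 (-0.10 to -0.01) and 0.43 (0.38 to 0.48). The CORT change of Rpl3l was -0.25 without Cre and 0.23 in GR-mKO. Their transcripts have like lengths of 1351 and 1375 bases, at which other abundant genes had a median of 0.21 under vehicle and 0.31 under CORT in the GR-mKO comparisons.

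Rpl7l1, a paralog of Rpl7 with a role in ribosome assembly, was among the few members higher under CORT in WAT, at 49.2, 68.5, 53.1 and 63.9 CPM. Its changes were 0.47 (0.36 to 0.60) for GRfl/fl and 0.26 (0.15 to 0.38) for GR-mKO mice, the largest upward changes of any member with at least 10 CPM there, and both CORT values were above both vehicle values. Its partner Rpl7 was at 412, 288, 450 and 341 CPM, lower in both CORT libraries. In gastrocnemius Rpl7l1 was nearly level at 34.1, 30.9, 35.1 and 35.1 CPM, when Rpl7 was at 166, 233, 329 and 304 CPM. The Rpl7l1 transcript, at 2606 bases, is long for a member.

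Rpl22l1 was scarce at 10.4, 10.6, 15.1 and 16.0 CPM in gastrocnemius, 5.90, 3.70, 4.87 and 2.15 CPM in liver and 13.3, 14.2, 11.4 and 12.5 CPM in WAT. Its partner Rpl22 was at 70.1, 53.6, 93.1 and 89.1 CPM, 56.3, 43.2, 70.2 and 53.7 CPM, and 116, 76.0, 121 and 94.1 CPM. In WAT the CORT change of Rpl22 was -0.60 and -0.36, whereas that of Rpl22l1 was 0.09 (-0.16 to 0.33) and 0.13 (-0.13 to 0.40), intervals that hold 0. In liver Rpl22l1 was at -0.61 (-1.11 to -0.25) and -1.02 (-1.71 to -0.65) under CORT, on few counts.

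Rps27l, a paralog of Rps27 induced by p53, was at 32.2, 25.3, 57.7 and 75.5 CPM in gastrocnemius, at 57.3, 49.1, 72.2 and 75.8 CPM in liver and at 40.9, 30.7, 42.3 and 40.2 CPM in WAT. The GR-mKO values were above the GRfl/fl values in gastrocnemius and liver. In gastrocnemius its CORT change was -0.34 (-0.52 to -0.17) for GRfl/fl and 0.38 (0.28 to 0.50) for GR-mKO mice. The changes in liver were -0.22 and 0.07 and in WAT -0.41 and -0.07, so it was lower under CORT in each GRfl/fl tissue.

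Other genes of the translation machinery were set beside the members. In the GR-mKO gastrocnemius the 17 translation factors and other messages known for TOP tracts had medians of 0.29 under vehicle and 0.26 under CORT, with 3 and 4 past 1.5-fold upward and 1 downward in each. Over all genes, as given above, 15.8% and 15.4% passed upward and 9.76% and 13.8% downward. At their ends under vehicle were Npm1, a nucleolar chaperone, at 1.58 and Naca, a subunit of the nascent polypeptide-associated complex, at -0.63. Npm1 was at 21.9, 58.4, 66.6 and 67.6 CPM, so that GRfl/fl vehicle was again the library that differed.

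Ribosome assembly factors and RNA polymerase I genes, 36 in all, were near 0 in the same comparisons, at 0.11 and 0.08, with 3 and 2 past 1.5-fold upward and 1 downward in each. The 78 mitochondrial ribosomal protein genes were at 0.22 and 0.43, with 8 and 22 past 1.5-fold upward and none downward, under vehicle a smaller share than among all genes. The 11 genes of TOP and mTORC1 control, such as Larp1 and Mtor, were at -0.28 and -0.44, with 0 and 4 past 1.5-fold downward and none upward. These lists also differ in median transcript length, which rises from the mitochondrial ribosomal proteins (1148 bases) over the TOP messages (1794) and assembly (2700.5) to the control genes (5531). Lists of shorter transcripts had the higher medians under CORT, and under vehicle too, except that the TOP messages were above the mitochondrial ribosomal proteins.

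Under CORT in GRfl/fl liver, the lists were at -0.08 for the TOP messages, -0.01 for assembly, -0.10 for mitochondrial ribosomal proteins and 0.07 for control genes. The past-1.5-fold counts, upward and downward, were 1 and 0, 3 and 1, 0 and 1, and 2 and 1. In GR-mKO liver the medians were -0.01, 0.01, 0.10 and -0.08, and 56 of the 78 mitochondrial ribosomal proteins were higher under CORT there, against 24 in GRfl/fl. In GRfl/fl WAT they were at -0.14, 0.23, -0.28 and -0.05, with 1 and 0, 8 and 5, 1 and 8, and 1 and 3 past 1.5-fold, and in GR-mKO WAT at -0.10, -0.03, -0.08 and -0.08, with at most 1 gene of a list past 1.5-fold either way. Over all genes 14.8% were 1.5-fold higher and 13.9% lower in GRfl/fl liver, and 14.4% and 19.5% in GRfl/fl WAT. Ddit4, which restrains mTORC1, was the lowest of the control genes there, at 63.7, 4.52, 50.6 and 12.6 CPM, with CORT changes of -3.68 and -1.96. In gastrocnemius Ddit4 was at 27.8, 7.52, 41.2 and 4.72 CPM.

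The study's own method for differential expression, NOISeq, which simulates replicates from a single library, was also applied with its stated settings and a probability of at least 0.9. In the gastrocnemius it called 24 of 80 members in GR-mKO against GRfl/fl under vehicle and 8 under CORT, all higher in GR-mKO, when 3.31% and 3.85% of all genes were called in either direction. In the CORT comparison in GRfl/fl gastrocnemius it called 8 members, 6 higher and 2 lower, against 3.48% of genes, and all 8 were genes with their lowest or highest value in GRfl/fl vehicle. Rpl28, Rpl30, Rpl38, Rpl41, Rps14, Rps27a, Rps28 and Rps7 made up these 8. In GR-mKO gastrocnemius under CORT it called no member, against 1.96% of genes.

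No member was called by NOISeq in liver or WAT, in any of the 8 comparisons. The shares of all genes called were 4.97% and 2.27% for CORT in GRfl/fl and GR-mKO liver and 0.569% and 1.47% for genotype under vehicle and CORT. In WAT they were 7.53% and 4.39% for CORT and 0.781% and 0.668% for genotype.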

How the data were processed

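Each of the 12 libraries was made from RNA pooled from 3 mice and sequenced as paired reads of 100 bases. The deposited values are expected counts (estimated counts), which the authors made with Salmon 1.2.1 on GENCODE M20 protein-coding transcripts and imported into R 3.5.0 with tximport on the length-scaled scale. Genome build mm10 is named in the submitters' processing notes. They are not scaled between libraries. The authors kept 1 entry per symbol, that with the largest total, and it bears 1 transcript identifier, so an entry may miss other transcripts of its gene, and changes were computed within a tissue only.

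CPM were computed on library totals, log2 changes after adding 0.5 CPM, and ratio intervals by the exact Clopper-Pearson method on rounded counts without that addition. A gene was tested at a mean of at least 1 CPM over the 4 libraries of its tissue and counted as called at 1.5-fold, with no p-value, since no group had a replicate. The members and the other gene lists were chosen with earlier results of these data known. Named genes were the paralog pairs, Rplp0, Rplp1, Rplp2, Rps6, Rpl5, Rpl11, Rps27a, Rpsa and Rpl13a, the 3 highest and 3 lowest members with at least 10 CPM in each comparison, and the 3 highest and lowest per kilobase in each tissue. Results of 1 gene that met this rule, and of 1 gene list, are not reported here. Lengths, positions and transcript numbers came from GENCODE M21 (GRCm38). Near-identical entries were those with at least 98% identity over 250 bases (BLAST 2.17.0). Alternatives were TMM factors (edgeR 4.0.16), median-of-ratios size factors (DESeq2 1.42.0), other added constants, filters and folds, subtraction of the length trend, and NOISeq for single libraries, rewritten and tested on simulated data. For NOISeq a gene had to be above 0 in each of the 4 libraries. Scripts ran in Python 3.11.15 and R 4.3.3.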

Additional observations from a re-analysis of the deposited data

Results flagged for a closer look

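In gastrocnemius the CORT change of Rps27l was -0.34 for GRfl/fl and 0.38 for GR-mKO mice on the log2 scale. It was singled out because both changes were at least 5 to 4 as a ratio and went opposite ways, a limit set after the data were seen and applied to the named members. By sign alone 40 of 81 members went opposite ways, among them Rpl3l at -0.25 and 0.23. The difference was not tested, since each group is 1 library.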

How the results depend on the processing

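No member median changed sign under any alternative tried except under CORT in gastrocnemius, where it was -0.05 and -0.08 in GRfl/fl and GR-mKO by library totals, 0.034 and 0.074 with TMM and 0.059 and 0.063 with size factors. TMM gave 0.57 for genotype under vehicle in gastrocnemius and -0.33 and -0.14 for CORT in WAT in GRfl/fl and GR-mKO, where size factors gave -0.33 and -0.13. With the length trend removed the medians were 0.16 for CORT in GRfl/fl gastrocnemius, 0.26 and 0.10 for genotype there under vehicle and CORT, -0.19 for CORT in GRfl/fl liver, 0.14 for genotype in liver under CORT, -0.063 and -0.19 for CORT in WAT, and 0.077 for genotype in WAT under CORT. In members over 1000 bases, an alternative chosen after seeing the data, as were single-transcript members and summed near-identical entries, the median was 0.42 for genotype in gastrocnemius under CORT and -0.27 for CORT in GRfl/fl WAT. The other 125 medians moved by less than the counting interval of a median member. Members past the fold for genotype in gastrocnemius numbered 48 under vehicle and 42 under CORT, 24 and 11 with the length trend removed, 24 and 8 by NOISeq, and 20 and 8 at 2-fold, which 9.70% and 11.5% of all genes passed. For CORT in GRfl/fl WAT they numbered 14, 8 with TMM, 7 with size factors, 1 with the length trend removed and 0 by NOISeq. Shares of all genes past the fold were not computed with TMM, size factors or the length trend removed. At a ratio of 5 to 4 the counts, in the order CORT in GRfl/fl, CORT in GR-mKO, genotype under vehicle and genotype under CORT, were 25, 4, 68 and 75 of 81 in gastrocnemius (all genes 47.5%, 38%, 49.3% and 53.9%), 29, 21, 21 and 50 of 80 in liver (50.8%, 40.2%, 28.5% and 39.6%) and 59, 23, 2 and 23 of 80 in WAT (58.2%, 49.0%, 25.9% and 31.0%). Without mitochondrially encoded transcripts in the total, the members' shares were 1.71%, 1.70%, 2.81% and 2.60% in gastrocnemius, 1.27%, 1.05%, 1.48% and 1.27% in liver and 2.52%, 1.87%, 2.60% and 2.28% in WAT. Without the 10 most abundant other transcripts they were 1.86%, 1.83%, 2.87% and 2.76%, then 1.40%, 1.15%, 1.67% and 1.44%, and 2.68%, 1.94%, 2.76% and 2.40%. The cause of these shifts was not tested. No replicate could be left out and no paired analysis was possible because each group was 1 library. Low counts limit only the scarce members, such as Rpl22l1, and Rps27 and Rps12, whose near-identical entries hold most of the counts.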
